A study of Mus musculus with 4 samples.

Results

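Bmp1, Bmp4, Mgp, Igfbp3 and Cyr61 are 5 of the 84 genes on an RT-PCR array for mouse nephrotoxicity, and they are described here as genes of bone morphogenetic protein (BMP) signalling, the extracellular matrix and growth factor control. They were picked by name, with earlier results of these data known, and are not all the array genes of these themes. The array was run on total RNA of MCT cells, a murine kidney epithelial line that the labels place in the convoluted tubule, with 1 sample for each of 4 conditions. These were cells without treatment, 10 μg/ml of cyclosporine A (CsA), 10 μM of SB203580, which inhibits p38 MAPK, and 1 μM of 11R-VIVIT (labelled 11R), a cell-permeable peptide that blocks NFAT. All cells were grown in DMEM with serum, and the general methods give a day for treatments at these doses, while the labels give no time. The study used the array to ask whether the p38 MAPK inhibitor and CsA act alike on nephrotoxic genes and whether inhibition of NFAT does so too.

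BMPs are secreted growth factors of the TGF-β family, and BMP4 is one of their ligands with roles in kidney development. BMP1 is no ligand in spite of its name. It is a secreted metalloproteinase that trims procollagens and cleaves the BMP antagonist chordin. Matrix Gla protein, the product of Mgp, is a vitamin K-dependent matrix protein that inhibits calcification and binds BMPs. IGFBP3 carries insulin-like growth factors, and CYR61, now named CCN1, is a matricellular protein that binds integrins and is the product of an immediate early gene.

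For Cyr61, Bmp4 and Igfbp3, the RefSeq promoter table of GRCm38.p6 gave the sequence before the transcription start, and the 250 upstream bases are shown because the study turns on the calcineurin and NFAT axis. No sequence is printed for Bmp1 and Mgp. Igfbp3 and Bmp4 were matched by symbol and Cyr61 by its synonym, since RefSeq lists it as Ccn1. All 3 windows lie on the minus strand and are written 5′ to 3′, at chr3:145649986-145650235 for Cyr61, chr14:46390670-46390919 for Bmp4 and chr11:7213924-7214173 for Igfbp3. The start used for Igfbp3 lies 1575 bases inside the outer end of its gene record. Capitals mark matches on either strand to GGAAA (the core of NFAT sites), GGAATG (the core of TEAD sites), TGANTCA (AP-1) and TATAAA (the TATA box), and no matches overlapped.
Cyr61: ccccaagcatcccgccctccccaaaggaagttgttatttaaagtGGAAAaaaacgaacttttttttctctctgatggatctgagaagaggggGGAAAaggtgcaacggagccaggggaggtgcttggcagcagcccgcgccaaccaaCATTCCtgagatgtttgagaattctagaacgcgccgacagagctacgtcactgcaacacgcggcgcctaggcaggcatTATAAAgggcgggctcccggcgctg
Bmp4: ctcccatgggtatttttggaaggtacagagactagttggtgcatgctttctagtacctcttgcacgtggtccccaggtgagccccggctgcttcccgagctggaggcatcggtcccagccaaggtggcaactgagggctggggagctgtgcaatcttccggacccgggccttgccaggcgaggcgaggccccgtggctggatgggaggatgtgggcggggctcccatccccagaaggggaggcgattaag
Igfbp3: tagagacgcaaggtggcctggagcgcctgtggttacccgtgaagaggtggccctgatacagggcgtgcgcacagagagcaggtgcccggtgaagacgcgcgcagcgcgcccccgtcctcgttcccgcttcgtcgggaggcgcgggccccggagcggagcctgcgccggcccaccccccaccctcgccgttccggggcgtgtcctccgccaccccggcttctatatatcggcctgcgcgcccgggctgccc
The Cyr61 window held GGAAA at positions -206 to -202 and -158 to -154 from the start, the reverse complement of the TEAD core at -103 to -98, and TATAAA at -25 to -20. The windows of Bmp4 and Igfbp3 held none of the 4 motifs as spelled. Other spellings of the TATA box were not searched, and the Igfbp3 window has the letters tatatat close to the start. Over 32851 promoter windows of the same length, GGAAA was found in 55.6%, GGAATG in 12.6%, TGANTCA in 6.75% and TATAAA in 12.4%. The windows were 54.8% G or C for Cyr61, 63.2% for Bmp4 and 73.2% for Igfbp3. A match is a description of the letters, and no binding was measured here.

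The deposited value is the Ct, or the number of PCR cycles a gene needs to reach the detection threshold, so that a lower Ct means more RNA. Ct of different assays were not compared as levels, because their efficiencies are unknown. Levels are given as the Ct relative to that of Actb (beta-actin) in the same sample, which crossed between 17.8 and 18.1 cycles. A log2 change is this relative Ct in untreated cells less the one in treated cells, and 1 unit is 2-fold if each cycle doubles the product. A Ct of 35 or later was taken as a limit. All 5 genes were below it in all 4 samples, as were 69 of the 84 array genes. Each condition has a single sample, so differences have no error, test or p-value, and a change of at least 2-fold was called raised or lowered without a replicate check. RNA of a whole culture does not tell fewer expressing cells from less RNA per cell. Of 13 tubular markers listed for the check of the cell type, 7 were on the array, and 6 of them were below the limit in untreated cells, with Calb1, of the distal tubule, past it. The mesenchymal markers Vim and Fn1 were also read early, at Ct 23.2 and 22.2, and the array held 0 of 4 immune and 0 of 3 endothelial markers.

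The choice of the reference moves every gene alike. Taken against the median Ct of the 69 genes that every sample detected, the changes were 0.50 lower under CsA than relative to Actb, 0.089 lower under SB203580 and 0.0125 higher under 11R-VIVIT. On the whole array, CsA raised 16 and lowered 13 of 80 genes relative to Actb, and raised 8 and lowered 20 relative to that median. Values below are relative to Actb, and the array median is given where it turns a direction or a call.

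Among the 5 genes, Igfbp3 rose at least 2-fold under SB203580 and under 11R-VIVIT, and no other gene was called with any treatment. Under CsA, 0 of the 5 were raised, where 20.0% of the array genes were raised, and 0 were lowered, where 16.2% were. Under SB203580, 1 of the 5 was raised beside 15.2% of 79 array genes, and 0 were lowered beside 8.86%. Under 11R-VIVIT, 1 of the 5 was raised beside 5.26% of 76 array genes, and 0 were lowered beside 3.95%. Counts of 0 or 1 among 5 genes do not stand apart from these shares. The median log2 change of the 5 genes was 0.16 under CsA, 0.08 under SB203580 and 0.12 under 11R-VIVIT, and that of all array genes was 0.15, 0.27 and -0.02. In each treatment 3 of the 5 lay above untreated cells and 2 below, and these were Mgp, Igfbp3 and Cyr61 above and Bmp1 and Bmp4 below. This split held relative to Actb. With the array median as reference Mgp lay below untreated cells under CsA and Cyr61 under SB203580, and without a reference Bmp1 lay above them under both. All 3 comparisons share the same untreated sample.

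**Figure D1:**
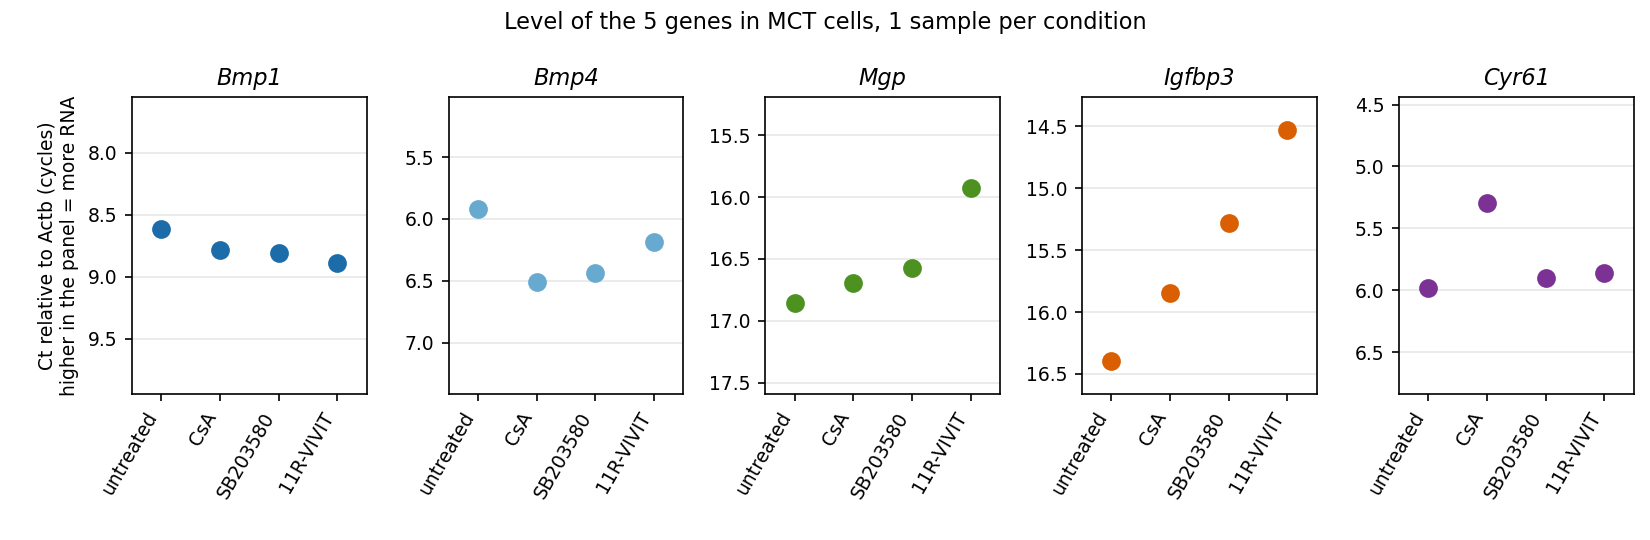
Ct relative to Actb (cycles, axis inverted so that more RNA is higher) for the 5 genes, with 1 point per condition and the same height of 2.4 cycles in each panel. Untreated cells had the highest level of Bmp1 and Bmp4 and the lowest of Mgp, Igfbp3 and Cyr61, and the widest panel is that of Igfbp3, from 16.4 to 14.5 cycles.

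Bmp4, the ligand of the group, had its highest level in untreated cells. Its Ct was 24.0 there, 24.35 under CsA, 24.2 under SB203580 and 24.3 under 11R-VIVIT. Relative to Actb these were 5.92, 6.51, 6.44 and 6.18 cycles. The order of the levels was therefore untreated, 11R-VIVIT, SB203580 and CsA, the last pair being 0.07 cycles apart. The log2 change was -0.59 under CsA, -0.52 under SB203580 and -0.26 under 11R-VIVIT, that is 0.665-fold, 0.70-fold and 0.834-fold of untreated cells. None of these passed 2-fold. With the array median as reference, it was -1.09 under CsA and passed it, where 20 of 80 array genes were lowered at least 2-fold. Without any reference gene, Bmp4 also had its lowest Ct in untreated cells, so its place at the top of the order did not rest on Actb. Among the 21 array genes detected in all samples with an untreated Ct from 23 to under 27, a range chosen after the values were seen, the CsA change of Bmp4 stood at place 14 by size, where the median size was 0.76.

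Bmp1, the metalloproteinase, was nearly level across the conditions relative to Actb. Its Ct was 26.7 in untreated cells, 26.6 under CsA, 26.6 under SB203580 and 27.02 under 11R-VIVIT. Relative to Actb it stood at 8.61, 8.79, 8.81 and 8.89 cycles in that order. The whole span of 0.27 cycles, or 1.21-fold, was the second narrowest of the 69 genes detected in all samples. The log2 changes were -0.17 under CsA, -0.19 under SB203580 and -0.27 under 11R-VIVIT. Under CsA this was the smallest change among the 21 genes of similar Ct. Without a reference gene the values were 0.10 under CsA and 0.11 under SB203580, so that its direction under these treatments was not settled.

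Bmp4 and Bmp1 read in the same sample can be set against each other without Actb. The log2 ratio of Bmp4 to Bmp1 was 2.69 in untreated cells, 2.28 under CsA, 2.37 under SB203580 and 2.70 under 11R-VIVIT. Its size depends on both assays and only its shift between samples is read here. The ratio was 1.33-fold lower under CsA and 1.25-fold lower under SB203580 than in untreated cells, and under 11R-VIVIT it shifted by 0.01 on the log2 scale. The 2 genes thus differed in their response by less than 2-fold under all treatments.

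Mgp, the inhibitor of calcification, was read close to the limit. Its Ct was 34.97 in untreated cells, 34.5 under CsA, 34.4 under SB203580 and 34.1 under 11R-VIVIT, so that the untreated value lay 0.0274 cycles below 35. So late a Ct starts from few copies of cDNA, and the precision of these single wells is unknown. Relative to Actb, Mgp stood at 16.9, 16.7, 16.6 and 15.9 cycles, lowest in untreated cells and highest under 11R-VIVIT. The log2 change was 0.16 under CsA, 0.28 under SB203580 and 0.93 under 11R-VIVIT. The last was just under the 2-fold threshold and stood at place 6 from the top of 76 genes. Against the array median, Mgp was at -0.34 under CsA, while the 11R-VIVIT change was 0.94. Compared directly, Mgp was 1.70-fold lower under CsA than under 11R-VIVIT (log2 difference -0.77), and with the array median as reference this difference was -1.28 and passed 2-fold. In the 12 genes detected in all samples with an untreated Ct from 33 to under 35, a range also set after the values were seen, Mgp had the smallest change under CsA and the third largest under 11R-VIVIT.

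Igfbp3, the carrier of insulin-like growth factors, had the widest range of the 5 genes. Its Ct was 34.5 in untreated cells, 33.7 under CsA, 33.1 under SB203580 and 32.7 under 11R-VIVIT. Relative to Actb these were 16.4, 15.8, 15.3 and 14.5 cycles, so each treated sample lay above the untreated one and 11R-VIVIT lay highest. The steps in that order were 0.55 from untreated cells to CsA and 0.57 from CsA to SB203580. The change was 1.46-fold under CsA, 2.17-fold under SB203580 and 3.64-fold under 11R-VIVIT. By place from the top this was 31 of 80 genes under CsA, 9 of 79 under SB203580 and 2 of 76 under 11R-VIVIT. The span of 1.87 cycles stood at place 18 of the 69 detected genes.

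The Igfbp3 values were read late as well, with the untreated Ct 0.4863 cycles below the limit. Among the 12 genes of similar Ct, the changes under 11R-VIVIT ran from -0.66 to 1.87 with a median size of 0.36, and Igfbp3 was the highest of them. Under SB203580 it was second of the 12, where the median change was 0.69, so most late genes lay above untreated cells in that sample. Under CsA the median of the 12 was -0.0009 and Igfbp3 stood at place 5 from the top. The 11R-VIVIT change lay between 1.73 and 1.91 under the other references and the other amplification base. The SB203580 change was 1.03 relative to the array median and 0.95 relative to the median of the 20 genes read before cycle 25 in every sample, where it was no longer called. The CsA change was 0.05 against the array median and -0.02 against the early genes, so its direction was not settled. Directly between treatments, Igfbp3 was 2.49-fold lower under CsA than under 11R-VIVIT, where 15.2% of 79 array genes were lower by at least 2-fold, and 1.48-fold lower under CsA than under SB203580.

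Relative to Actb, Igfbp3 and Mgp shared the order of the 4 samples, from untreated cells through CsA and SB203580 to 11R-VIVIT. The log2 ratio of Igfbp3 to Mgp, which needs no reference gene, was 0.46 in untreated cells, 0.85 under CsA, 1.29 under SB203580 and 1.40 under 11R-VIVIT. Against untreated cells this was a shift of 1.31-fold, 1.78-fold and 1.92-fold. The change of Igfbp3 from untreated cells thus lay above that of Mgp in each treated sample, whichever reference was used. Since both genes amplified after cycle 32 in all samples, neither has a value under a stricter limit of 32. Igfbp1, the other binding protein of this family on the array, was at the limit in all 4 samples, with a Ct from 35.02 to 37.1, and has no change.

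**Figure D2:**
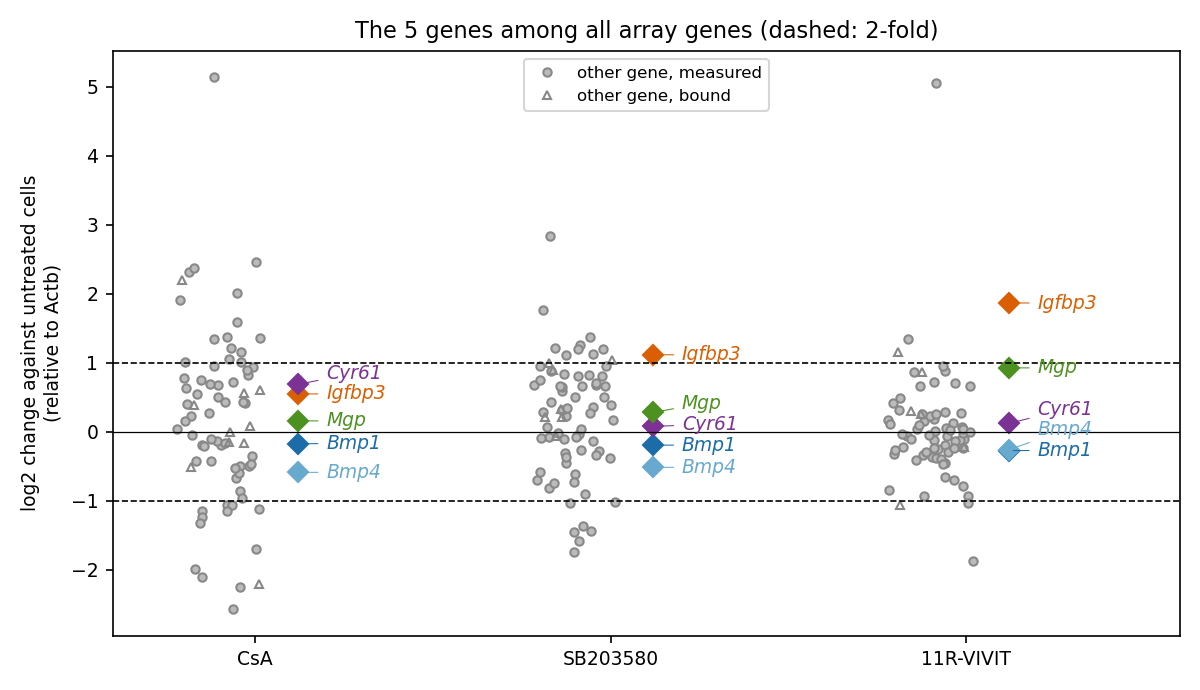
Log2 change against untreated cells relative to Actb for each array gene (grey circles measured, open triangles bounds from a Ct at the limit) and for the 5 genes (coloured diamonds) under CsA, SB203580 and 11R-VIVIT. Igfbp3 lies above the dashed 2-fold line under SB203580 (1.12) and 11R-VIVIT (1.87), and the other 4 genes lie between the dashed lines in each treatment.

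Cyr61, the integrin ligand and immediate early gene, had its highest level relative to Actb under CsA. Its Ct was 24.1 in untreated cells, 23.1 under CsA, 23.7 under SB203580 and 24.0 under 11R-VIVIT. Relative to Actb it stood at 5.98, 5.30, 5.91 and 5.86 cycles, so the CsA sample stood apart and the other 3 lay within 0.12 cycles of each other. The change under CsA was 1.61-fold (log2 change 0.69), under the 2-fold threshold, and stood at place 25 of 80 genes from the top. The log2 change was 0.08 under SB203580 and 0.12 under 11R-VIVIT. With the array median as reference, Cyr61 changed by 0.19 under CsA, -0.01 under SB203580 and 0.13 under 11R-VIVIT. The CsA sample then lay close to the 11R-VIVIT sample and no longer stood apart. Compared directly with Actb as reference, Cyr61 was 1.52-fold higher under CsA than under SB203580 and 1.48-fold higher than under 11R-VIVIT. In these comparisons 12.3% and 22.8% of array genes were higher by at least 2-fold. The log2 differences of Cyr61 were 0.61 and 0.57 with Actb, but 0.20 and 0.06 with the array median. They were 0.21 and -0.04 with the median of the early genes, and 0.57 and 0.85 without a reference gene. Its place above 11R-VIVIT under CsA was thus not settled.

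The gap between Cyr61 and Bmp4 did not depend on Actb and was widest under CsA. The log2 ratio of Cyr61 to Bmp4 was -0.06 in untreated cells, 1.21 under CsA, 0.53 under SB203580 and 0.32 under 11R-VIVIT. It was 2.42-fold higher under CsA than in untreated cells, 1.51-fold higher under SB203580 and 1.30-fold higher under 11R-VIVIT. The ratio of Cyr61 to Bmp1 was 1.81-fold higher under CsA, 1.21-fold under SB203580 and 1.31-fold under 11R-VIVIT. These pairs were chosen after the values were seen, and no background for such ratios was computed. The mesenchymal marker Vim changed in the same samples by 2.47 on the log2 scale under CsA, 0.82 under SB203580 and -0.004 under 11R-VIVIT, and Fn1 by -0.13, -0.27 and -0.29. Their part in the values of Cyr61 and Bmp4 was not tested.

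**Figure D3:**
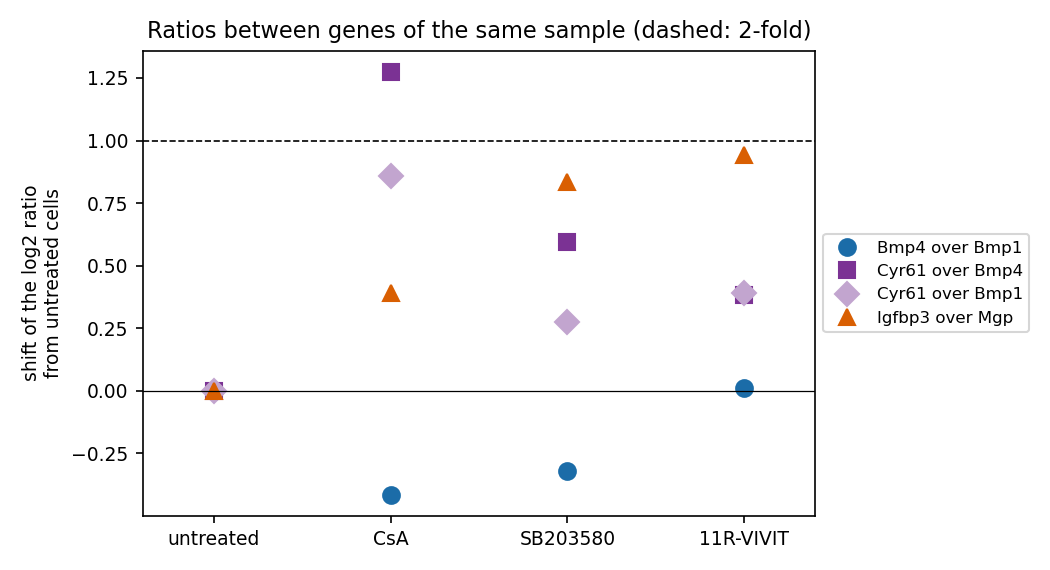
Shift from untreated cells of the log2 ratio between 2 genes of the same sample (no reference gene), 1 point per pair and condition. Cyr61 over Bmp4 under CsA (1.27) is the only point above the dashed 2-fold line, and Bmp4 over Bmp1 is the only pair below 0, under CsA and SB203580.

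Each gene was also set beside the array genes with the most similar pattern. The measure was the root mean square (RMS) difference of the centred Ct over the 4 samples among the 69 detected genes, which does not depend on the reference. A small value over 4 samples is a description and says nothing of shared control. For Bmp1 the nearest was Fn1 (fibronectin, a matrix glycoprotein) with 0.0444 cycles, followed by Cst3 with 0.0793 and Hsp90aa1 with 0.149. For Bmp4 they were Oat (ornithine aminotransferase) with 0.123, Ccs with 0.156 and Bmp1 with 0.19. Cyr61 was nearest to Anxa5 (annexin A5) with 0.088, Lcn2 (lipocalin-2, an injury marker) with 0.127 and Cd44 (a hyaluronan receptor) with 0.128. Under CsA the log2 changes of these last were 0.67 for Anxa5, 0.89 for Lcn2 and 0.76 for Cd44, beside 0.69 for Cyr61. The neighbours of the late genes were less close. Mgp was nearest to Socs3 (a cytokine signal inhibitor) with 0.229, and Cp was the third with 0.314. Igfbp3 was nearest to Mgp with 0.374, and Ctss was the third with 0.473.

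**Figure D4:**
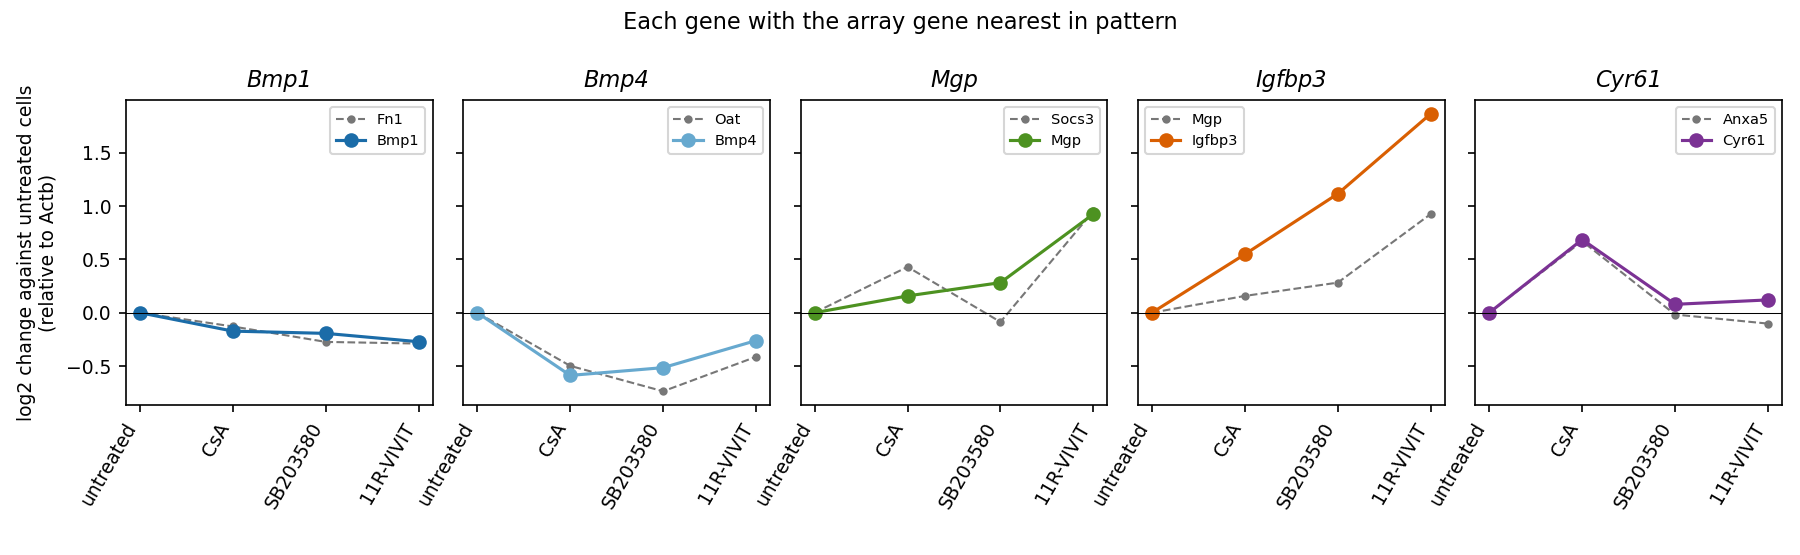
Log2 change against untreated cells relative to Actb (untreated set to 0) for each of the 5 genes (coloured) and its nearest array gene (dashed grey line), with 1 sample per condition. The grey line runs close to Bmp1 (Fn1, RMS difference 0.0444 cycles) and Cyr61 (Anxa5, 0.088), and further from Igfbp3 (Mgp, 0.374).

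Other genes of the same themes were counted in lists. Of 20 listed genes of the BMP and TGF-β pathway, only A2m (α2-macroglobulin, which binds growth factors and proteinases) was on the array. Its log2 change was 0.78 under CsA, 0.84 under SB203580 and -0.06 under 11R-VIVIT, none past 2-fold. The other 19 listed names, among them the BMP receptors Bmpr1a and Bmpr2 and the antagonists Chrd and Nog, were not among the array genes.

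Of 25 listed matrix and cell adhesion genes, 12 were on the array. CsA raised 3 of 12 at least 2-fold and lowered 2, beside 20.0% and 16.2% of all array genes, with a median log2 change of 0.04. Raised were Vim (2.47), Lgals3 (galectin-3, 1.35) and Spp1 (osteopontin, 1.06), and lowered were Havcr1 (KIM-1, -2.10) and Cd24 (-1.12). Vim encodes vimentin, a protein of the cytoskeleton, and is no matrix or adhesion gene in the strict sense. Against the array median, Lgals3 was 0.85 and Spp1 0.56. Only Vim (1.97) was then still raised, 1 of 12 beside 8 of 80 array genes, and the median of the list was -0.46. SB203580 raised 2 of 12, Spp1 (1.11) and Fgb (at least 1.05), and lowered Cd24 (-1.44), beside 15.2% and 8.86% of all array genes, with a median of 0.425. The bound of Fgb was 0.96 against the array median and no longer called. Under 11R-VIVIT, 0 of 11 were raised and Cd24 (-1.03) was lowered, beside 5.26% and 3.95% of all array genes, with a median of 0.02.

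Of 19 listed growth factors, receptors and binding proteins, 5 were on the array and 4 had a value. CsA and SB203580 both lowered Egf, with a log2 change of -1.15 under CsA and -1.45 under SB203580, and raised Angptl4, by 5.14 and 1.77. CsA also raised Tnfrsf12a, the gene of Fn14, by 1.15, which was 0.65 and under 2-fold against the array median. CsA thus raised 2 and lowered 1 of 4, and SB203580 raised 1 and lowered 1, while 11R-VIVIT raised or lowered 0. The array shares are those given for the matrix genes, and 4 genes are too few to be set apart from them. Of 13 genes in a mixed list of immediate early and growth arrest genes, 7 were on the array. It holds CCnd1 (cyclin D1), which drives the cell cycle, beside Cdkn1a, which halts it, so it is not a single class with Cyr61. CsA raised 2 of 7, Gadd45a (1.91) and CCng1 (1.37), and lowered Cdkn1a (-1.06), beside 20.0% and 16.2% of all array genes. CCng1 was 0.87 against the array median and no longer called. SB203580 raised Gadd45a (1.201) and lowered 3 of 7, CCnd1 (-1.58), Cdkn1a (-1.36) and Btg2 (-1.02), beside 15.2% raised and 8.86% lowered on the array. Under 11R-VIVIT, Atf3 alone was lowered (-1.87) and 0 were raised, beside 3.95% lowered and 5.26% raised on the array. The median of the 7 genes was 0.41 under CsA, -0.73 under SB203580 and -0.25 under 11R-VIVIT, beside 0.69, 0.08 and 0.12 for Cyr61. Against the array median the CsA median of the 7 was -0.09.

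**Figure D5:**
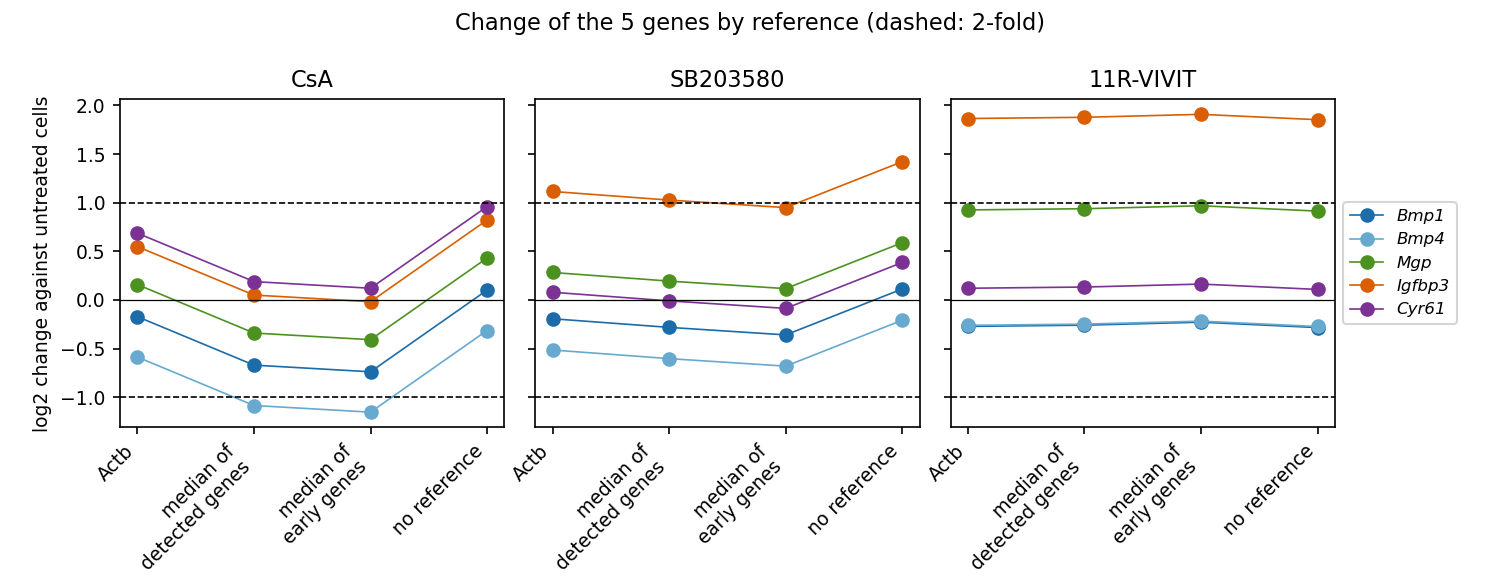
Log2 change of the 5 genes against untreated cells under 4 references (Actb, the median of the 69 detected genes, the median of the 20 early genes, none), 1 panel per treatment with the 2-fold lines dashed. Under CsA the whole set shifts with the reference, and Bmp4 passes the lower line relative to both medians, while under 11R-VIVIT the values hardly move.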

How the data were processed

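Total RNA of MCT cells was extracted with TRIzol, equal amounts were reverse transcribed, and a mouse nephrotoxicity RT-PCR array was run with SYBR green. The authors deposited 1 Ct per gene and sample without normalization for 84 genes and Actb. Instrument, threshold and wells per gene are not given in the sources used here. A second deposited table of the authors' own fold changes against untreated cells was not used. Columns were assigned to conditions by the sample titles, and there is 1 sample per condition.

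The log2 change was calculated by the delta–delta Ct method with Actb as reference and an amplification base of 2. The paper normalized to housekeeping genes supplied with the array, and Actb was the only such gene among the Ct used here. A Ct of 35 or later was set to 35, and the change is then a bound. A change of at least 2-fold was called. The 5 genes, the lists and the rules were chosen with earlier results of these data known. Named are the 5 genes, Actb, the 3 array genes nearest to each in pattern, and the listed genes on the array. A gene among those nearest in pattern is not reported here. The lists relative to the array median were added after the data were seen. The calculation was checked on simulated data. Promoters are from RefSeq, and Python 3.11.15, numpy 2.4.6 and matplotlib 3.10.9 were used.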

Additional observations from a re-analysis of the deposited data

How the results depend on the processing

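The number of samples limits every value, since there is 1 per condition and no sample can be left out. No paired analysis was possible because each condition has 1 sample. Over 6 alternative settings, 140 changes of the 5 genes were recalculated, and 122 kept their direction and their side of 2-fold. Part of this count is fixed by construction and is no check. All 5 genes were below the Ct limit, so dropping it returned the same values. A limit of 32 did so for Bmp1, Bmp4 and Cyr61. Another amplification base scales a value and cannot turn its direction. The values that moved, 13 reversed, 4 that newly passed 2-fold and 1 that no longer did, all came from a change of reference. A Ct limit of 32 left 10 values of Mgp and Igfbp3 without a result. By construction this leaves 0 of the 5 genes raised under SB203580 and 0 under 11R-VIVIT, beside 8 and 1 of the array genes. The cause of the other differences was not tested beyond the shift of the reference itself.

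Relative to the array median, Bmp4 under CsA was -1.09. This made 1 of the 5 genes lowered under CsA in place of 0, beside 20 of 80 array genes. With the same reference, Mgp under CsA was -0.34 and Cyr61 under SB203580 was -0.0099. As CsA over 11R-VIVIT, Mgp was -1.28 and Bmp1 -0.41, and as CsA over SB203580, Bmp1 was -0.39. Relative to the median of the early genes, which include Bmp4 and Cyr61, Bmp4 under CsA was -1.15 (1 of 5 lowered, beside 23 of 80 array genes). Under CsA, Mgp was then -0.41 and Igfbp3 -0.018. Under SB203580, Cyr61 was -0.087 and Igfbp3 0.95 (0 of 5 raised, beside 7 of 79 array genes). As CsA over 11R-VIVIT, Mgp was then -1.38, Bmp1 -0.51 and Cyr61 -0.043, and as CsA over SB203580, Bmp1 was -0.38. With no reference gene, Bmp1 was 0.10 under CsA and 0.11 under SB203580, and -0.012 as CsA over SB203580. An amplification base of 1.9, which cannot turn a direction, changed no call of the 5 genes. Without a Ct limit their values were the same by construction. At 1.5-fold, CsA raised 1 and lowered 1 of the 5, beside 28 and 18 of 80 array genes. With that threshold 11R-VIVIT raised 2 of the 5, beside 13 of 76 array genes. At 3-fold, SB203580 raised 0 of the 5, beside 2 of 79.

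Over the whole array, CsA raised 8 and lowered 23 genes relative to the early genes, and lowered 7 with no reference gene and 8 with a limit of 32. SB203580 raised 22 genes with no reference gene and 7 relative to the early genes. Under 11R-VIVIT, 1 gene was raised with a limit of 32 and 1 lowered with a base of 1.9. At 1.5-fold, 28 genes were raised under CsA, 29 raised and 13 lowered under SB203580, and 13 raised and 9 lowered under 11R-VIVIT. At 3-fold, 8 genes were raised and 6 lowered under CsA, and 2 were raised and 1 lowered under each of the other treatments.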
